A study of Mus musculus with 5 samples.

Results

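The 10 genes described here encode transcription factors and cofactors that set mast cell and basophil identity: Gata1, Gata2, Zfpm1, Mitf, Spi1, Tal1, Lmo2, Runx1, Cebpa and Cebpb. They were taken as the rows of the authors' deposited table whose gene name equals one of these symbols, and each symbol matched 1 of the 25549 gene models. RNA had been sequenced from mast cells cultured out of bone marrow with interleukin-3, taken from untreated C57BL/6 mice matched for age and sex whose age is not given in the labels. The control group carried Cpa3-Cre, a Cre recombinase driven by the promoter of a mast cell carboxypeptidase gene (2 samples), and the other group carried Cpa3-Cre;miR-9∆fl/∆fl and is called the miR-9 line here (3 samples), so Cre is common to both. Whether the recombined allele raises or removes miR-9 is not given in the labels. All log2 fold changes below are those of the authors' deposited table and are positive where the miR-9 line is higher, and adjusted p-values were computed here by the Benjamini-Hochberg method over its 24071 rows with a p-value. Whether the authors shrank these fold changes toward 0 is unknown here, and if they did, each fold printed understates the measured ratio, most of all for genes with few reads.

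As background, mast cells arise from bone marrow progenitors in which GATA2 is required early, and GATA2 and MITF keep the genes for the IgE receptor, KIT and granule proteases active in the mature cell. GATA factors act together with TAL1, which binds DNA with an E-protein partner and is bridged to GATA proteins by LMO2 and LDB1, while FOG1 (encoded by Zfpm1) is a GATA cofactor that restrains the mast cell fate in progenitors. PU.1 (encoded by Spi1) promotes myeloid fates, C/EBP alpha directs progenitors towards basophils and granulocytes, MITF opposes C/EBP alpha in the choice between mast cell and basophil, and RUNX1 works with its partner CBF beta in early blood cells and basophil progenitors.

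The allele under study concerns miR-9, so its mature sequences are shown first, because the seed matches of the member genes below are read against them. RefSeq (GRCm38.p6) gives the same mature pair at all 3 loci, Mir9-1 on chromosome 3, Mir9-2 on chromosome 13 and Mir9-3 on chromosome 7. Capitals mark the seed.
miR-9-5p: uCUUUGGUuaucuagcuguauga
miR-9-3p: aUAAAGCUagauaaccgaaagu

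None of the lineage factors passed the test between the genotypes. Of the 9 members given a p-value by the authors' deposited table, 0 rose and 0 fell at an adjusted p under 0.05, where 0.411 percent of all genes tested were called (0.245 percent higher and 0.166 percent lower), and 0 had an unadjusted p under 0.05, where 7.92 percent of all genes did. Their log2 fold changes in the authors' deposited table ran from -0.17 to 0.31, with 6 positive and 3 negative and a median of 0.06. Over all genes tested the median was -0.09 in the authors' deposited table, and 40.2 percent of values were positive. The smallest p-value of a member in the authors' deposited table was 0.404 and the largest 0.849, and 55.3 percent of all genes had a p-value at least as large as the smallest of these.

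Among the genes that passed the test, the smallest change in the authors' deposited table was 0.80 on the log2 scale, or 1.74-fold, in Rnf26. It is no detection limit, since a call depends on the standard error of each gene. The member with a p-value that lay farthest from 0 stood at 0.31, or 1.24-fold, in the authors' deposited table, and 57.2 percent of all genes tested lay within that distance of 0. The standard error of each fold change and the value in each sample were not analysed here, so an interval for the difference cannot be given, and a p-value above the threshold does not show that the genotypes have the same level. No label ties a replicate to its own mouse or culture, and p-values then reflect only how far these samples differ, possibly for technical reasons.

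**Figure D1:**
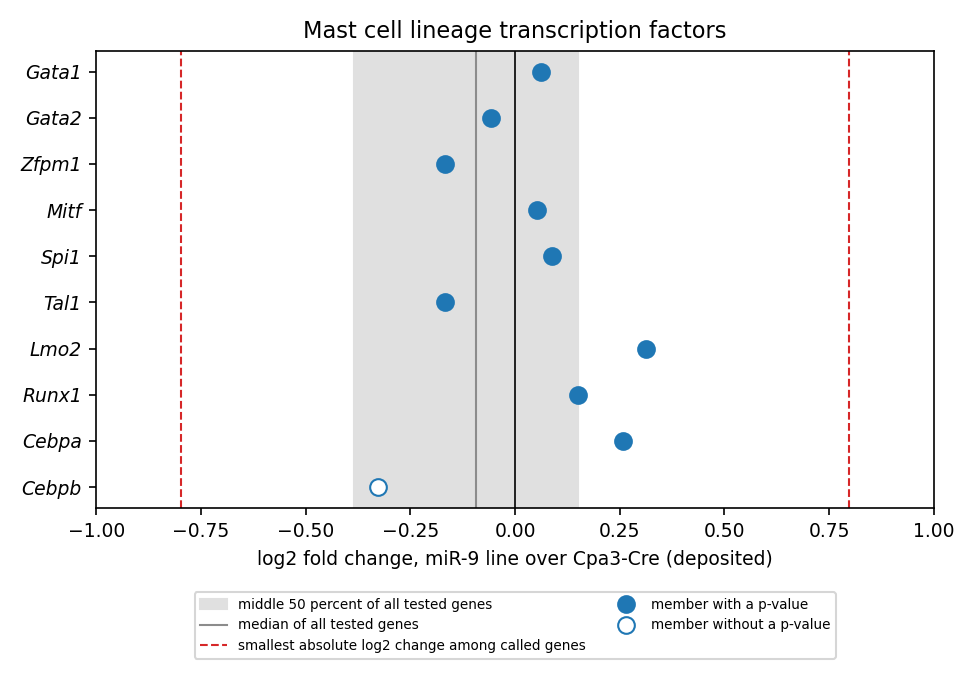
Deposited log2 fold change of each of the 10 members (miR-9 line over Cpa3-Cre), with filled points for the 9 with a p-value and an open point for Cebpb. The grey band holds the middle 50 percent of all tested genes, the grey line is their median, and every member lies between the dashed lines at the smallest absolute change of a called gene, 0.80.

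Gata2, Gata1 and Mitf had the log2 fold changes nearest to 0. Gata2, which is needed for mast cell progenitors and for the KIT and IgE receptor genes, lies on chromosome 6 from 88193891 to 88207030 (GRCm38, plus strand, 7 exons in the deposited gene model). In the authors' deposited table its log2 fold change was -0.06, 1.04-fold lower, with p = 0.829 and a Benjamini-Hochberg adjusted p of 0.982. Gata1, which supports the final maturation of mast cells and is essential in red cell precursors, lies on the X chromosome from 7959260 to 7978071 (minus strand, 10 exons). In the authors' deposited table its log2 fold change was 0.06, 1.04-fold higher, with p = 0.849 and a Benjamini-Hochberg adjusted p of 0.984. The sign of the Gata2 value depends on the reference: relative to the median of all genes tested it was 0.03, and that of Gata1 0.15. Zfpm1, on chromosome 8 from 122282141 to 122337251 (plus strand), encodes the GATA cofactor FOG1. Zfpm1 was listed at -0.17 in the authors' deposited table (p = 0.665, Benjamini-Hochberg adjusted p = 0.957).

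Mitf, whose loss in mice depletes mast cells, lies on chromosome 6 from 97807058 to 98021349 (plus strand, 13 exons). The authors' deposited table gives it a log2 fold change of 0.05, 1.04-fold higher, with p = 0.813 and a Benjamini-Hochberg adjusted p of 0.980. Of all genes tested, 88.2 percent had a larger absolute value than Mitf in the authors' deposited table. Spi1, on chromosome 2 from 91082390 to 91115756 (plus strand), encodes the ETS factor PU.1. Spi1 was listed at 0.09 in the authors' deposited table, 1.06-fold higher (p = 0.837, Benjamini-Hochberg adjusted p = 0.982).

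Tal1 and Lmo2, whose proteins sit in the same DNA-bound complex, had values of opposite sign. Tal1, on chromosome 4 from 115056426 to 115071755 (plus strand), was listed at -0.17 in the authors' deposited table, 1.12-fold lower (p = 0.613, Benjamini-Hochberg adjusted p = 0.948). Lmo2, on chromosome 2 from 103957986 to 103981878 (plus strand), was listed at 0.31 in the authors' deposited table, 1.24-fold higher (p = 0.404, Benjamini-Hochberg adjusted p = 0.901). The difference between the pair of log2 fold changes was 0.48, and it was not tested. These were the lowest and the highest of the 9 members with a p-value.

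Runx1, on chromosome 16 from 92601467 to 92826066 (minus strand, 8 exons), was listed at 0.15 in the authors' deposited table, 1.11-fold higher (p = 0.663, Benjamini-Hochberg adjusted p = 0.957). The gene for C/EBP alpha, Cebpa, is a single exon on chromosome 7 from 35119293 to 35121926 (plus strand). Cebpa was listed at 0.26 in the authors' deposited table, 1.20-fold higher (p = 0.625, Benjamini-Hochberg adjusted p = 0.952). Cebpa and Lmo2 thus had nearly the same fold change with different p-values. Gata2, whose balance with C/EBP alpha takes part in the choice between mast cell and basophil, lay 0.32 below Cebpa on the log2 scale, a difference that was not tested.

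Cebpb is the 1 member without a p-value. This single-exon gene on chromosome 2 from 167688915 to 167690418 (plus strand) encodes C/EBP beta, which acts downstream of cytokine signals in myeloid cells. In the authors' deposited table its log2 fold change was -0.33, the lowest of all 10, and it comes with no test. A p-value is empty in 1478 rows, or 5.78 percent of the table, and the reason for Cebpb is not given in the sources at hand.

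**Figure D2:**
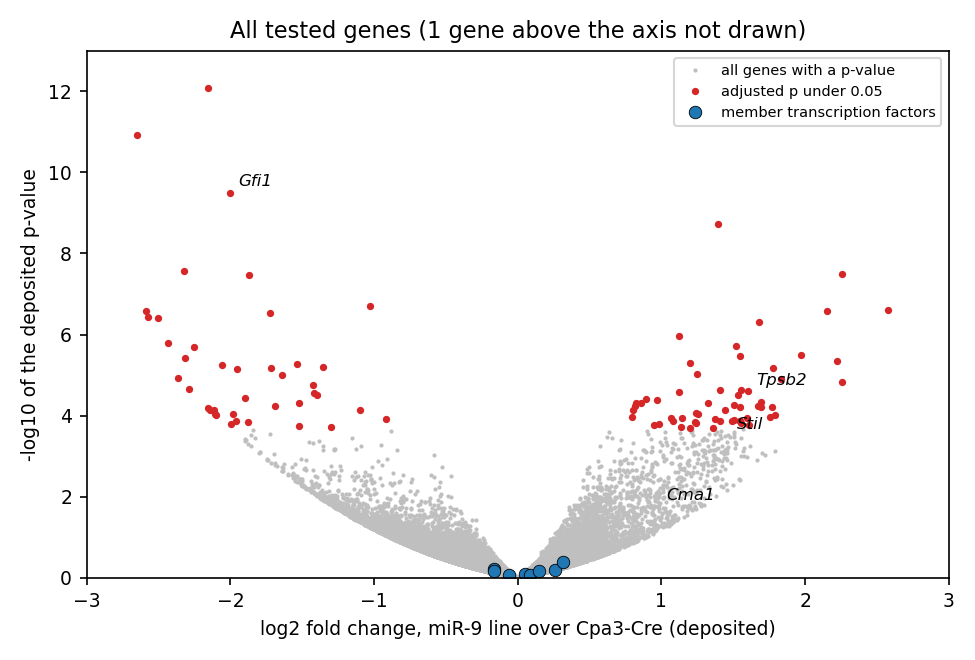
Deposited log2 fold change (horizontal) against -log10 of the deposited p-value (vertical) for all 24071 genes with a p-value, with called genes in red and the 9 tested members in blue. The blue points lie at the foot of the plot, at p-values from 0.404 to 0.849. The gene not drawn is Gm25641 at the Mir9-1 hairpin.

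Each member has 1 row, so promoters and splice forms of the same gene cannot be told apart. RefSeq start sites were found for 8 of the 10 members, 13 in all, and all 13 lie inside or within 10 bases of the exons of the deposited gene models. Mitf has 3 of these start sites, and Gata2, Tal1 and Runx1 have 2 each, so each of these 4 genes has a single deposited value for several starts. Windows from 250 bases before to 50 bases after each start were searched on both strands for the GATA letters AGATAA with its variant AGATAG and for TGATAA with its variant TGATAG. They were found in 3 of the 13 windows, of Tal1 and Mitf, against 29.8 percent of all 32851 RefSeq windows. One match from each of these windows is shown, the one nearest to the start, with the matched letters in capitals, on the gene's strand (GRCm38.p6, plus strand for both genes).
Tal1 first start, chr4:115056209-115056238: ctatagagtcttTTATCTttgagcaattcc
Mitf middle start, chr6:97929769-97929798: gtttccagggccTTATCAggagccacccct
Mitf last start, chr6:97991758-97991787: aagctgctgctgTGATAAcgtctccggcgg
A second match in the window of the last Mitf start lay at -202 bases from it. The E-box letters CAGATG, bound by TAL1 with its partners, were found in 1 member window, of Tal1 itself, against 17.2 percent of all windows. The E-box letters CACGTG and CATGTG, of the kind MITF binds, were found in 1 member window, of Runx1, against 20.4 percent. The ETS letters AGGAAG were found in windows of Gata1 and Runx1 (2 of 13, against 35.4 percent) and the RUNX letters TGTGGT in windows of Mitf and Runx1 (2 of 13, against 16.8 percent). These are matches of letters only.

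Matches to the miR-9 seeds were found in the 3' UTRs of 3 members when at least 7 bases were asked for. In the longest annotated 3' UTR of each of the 10 genes (GENCODE M21, GRCm38), a match of at least 7 bases to miR-9-5p was found in 2, Runx1 and Tal1, against 21.7 percent of the 15453 tested genes searched. A match to the whole seed of miR-9-5p (the letters ACCAAAG) was found in 0 of the 10 members, against 13.2 percent of genes. The matches in Runx1 and Tal1 are of the type in which bases 2 to 7 of the microRNA are paired and an A follows (the letters CCAAAGA). For miR-9-3p (AGCTTTA, or GCTTTA followed by A), 1 member, Mitf, had a match of at least 7 bases, against 18.4 percent of genes. Runx1, Mitf and Tal1 are the members with the 3 longest 3' UTRs, at 4189, 3174 and 3030 bases, where the median of all genes searched was 1073. The stretches are printed on the transcript's strand with the matched letters in capitals, since these are the matches just counted.
Runx1 first site, chr16:92605454-92605481, minus strand: cgttgtttattCCAAAGAgtgtggaatg
Runx1 second site, chr16:92604490-92604517, minus strand: gaggctgtaccCCAAAGAtccaaataga
Tal1 site, chr4:115068964-115068991, plus strand: ctttcccaagcCCAAAGAtttccccaat
Mitf site for miR-9-3p, chr6:98020207-98020234, plus strand: ccagtcttgtAGCTTTAttacttaaggg
Of the 3 genes with these sites, the authors' deposited table gives Runx1 (0.15) and Mitf (0.05) positive values and Tal1 (-0.17) a negative one, and none passed the test. Counting 6-base matches too, Gata2 gained a miR-9-5p match (3 of 10 members, against 37.0 percent of genes), and Cebpa and Runx1 gained a miR-9-3p match (3 of 10, against 29.8 percent). Gata1, Spi1, Zfpm1, Lmo2 and Cebpb had no match of 6 or more bases to either arm in that UTR.

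**Figure D3:**
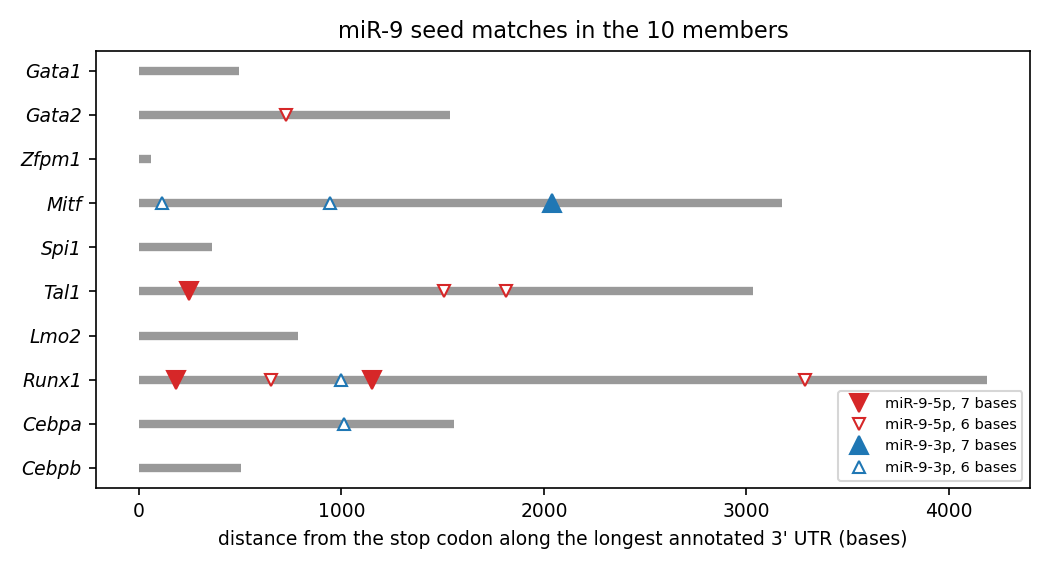
Matches to miR-9-5p (red, pointing down) and miR-9-3p (blue, pointing up) along the longest annotated 3' UTR of each member, drawn to scale in bases from the stop codon. Filled symbols are 7-base matches, which lie in Runx1, Tal1 and Mitf, and open symbols are 6-base matches.

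At a miR-9 locus itself, Gm25641, a microRNA-class gene model over the Mir9-1 hairpin on the opposite strand, rose by 4.50 in the authors' deposited table (Benjamini-Hochberg adjusted p = 8.74e-18). The gene models that span the hairpins on the hairpins' own strand had negative values instead, and none of them was called. In the authors' deposited table Gm3764 (over Mir9-1) stood at -0.15, C130071C03Rik (over Mir9-2) at -0.61 and AI854517 (over Mir9-3) at -1.06. The rise of Gm25641 thus cannot be read as a rise of the transcripts on the hairpin strand. The mature microRNA is not measured by these libraries.

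No family relative or direct partner of the members passed the test either. The lists of such genes, and those that follow, were drawn from general knowledge of these factors, with earlier results of these data known. Their counts and medians are therefore descriptions only. Of 39 relatives and partners tested in the authors' deposited table, 15 had positive and 24 negative values, with a median of -0.12. Of the 39, 0 were called, which is near the 0.411 percent called over all genes tested. Against 7.92 percent of all genes, 2 of the 39 had an unadjusted p under 0.05. Both of these are ETS factors. Spib, a close relative of PU.1 in B and dendritic cells, was listed at -1.05 in the authors' deposited table (p = 0.0403, Benjamini-Hochberg adjusted p = 0.586), and Etv6, a repressor needed for blood stem cells, at 0.39 (p = 0.0474, Benjamini-Hochberg adjusted p = 0.621). The median over the 10 ETS relatives tested was 0.12, and Spic, another PU.1 relative, was listed at -0.41 in the authors' deposited table (p = 0.182).

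The other GATA genes had negative values, also relative to the median of all genes, where Zfpm2 turned to 0.08. In the authors' deposited table Gata3, a lymphoid and mast cell regulator, stood at -0.88 (p = 0.0688), Gata4 at -0.73 (p = 0.142) and Gata5 at -0.23 (p = 0.658), while the FOG1 relative Zfpm2 was at -0.01. None of these 4 was called. Among the TAL1 complex partners, 4 of 11 were positive with a median of -0.18. Tal2, a relative of TAL1, was 1.99-fold lower in the authors' deposited table (p = 0.0623). The E-protein gene Tcf4 stood at -0.83 (p = 0.0802) and the E-protein gene Tcf3 at 0.39 (p = 0.0799) in the authors' deposited table. Lyl1, the relative of TAL1 closest in function, stood at -0.27 and the bridging factor gene Ldb1 at -0.30 in the authors' deposited table (p = 0.252 and p = 0.196); these 2 were chosen after their values were seen.

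Cbfb, which encodes the partner of every RUNX protein, was listed at 0.40 in the authors' deposited table (p = 0.0697), the corepressor gene Runx1t1 at -0.55 (p = 0.141) and Runx2 at -0.54 (p = 0.278). Of the 5 RUNX partners and relatives 3 were positive, with a median of 0.06. For a list of MITF relatives that also holds Usf1, Usf2 and Mlx, 1 of 5 was positive, namely Mlx. The median was -0.07, which turned to 0.017 relative to the median of all genes. Usf1 stood at -0.26 (p = 0.187), Tfeb, a lysosomal gene regulator, at -0.65 (p = 0.218) and Mlx at 0.19 (p = 0.607) in the authors' deposited table. The genes listed with C/EBP, by name or by family, had a median of -0.14 over 4 genes. Cebpd stood at -0.70 (p = 0.171), Cebpz at -0.16 (p = 0.418) and Ddit3 at -0.12 (p = 0.680) in the authors' deposited table, and Cebpe, which drives late granulocyte genes, had no p-value.

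Cofactors through which GATA1 and its partners act on chromatin all had positive values, 13 of 13, with a median of 0.18 in the authors' deposited table, where 40.2 percent of all genes were positive. That share covers all 24071 genes tested, whatever their level. Genes of similar expression were not compared, so the 13 of 13 cannot be read as a trait of these cofactors. They include subunits of the NuRD complex, which FOG1 recruits. None was called, and 1 had an unadjusted p under 0.05: Hdac1, a histone deacetylase of that complex, was listed at 0.49 in the authors' deposited table (p = 0.0231, Benjamini-Hochberg adjusted p = 0.485). Rbbp7, a histone-binding subunit, stood at 0.47 (p = 0.0570) and Gatad2a, another NuRD subunit, at 0.22 (p = 0.128) in the authors' deposited table. The lowest of the 13 was Mta2 at 0.01, chosen after its value was seen.

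**Figure D4:**
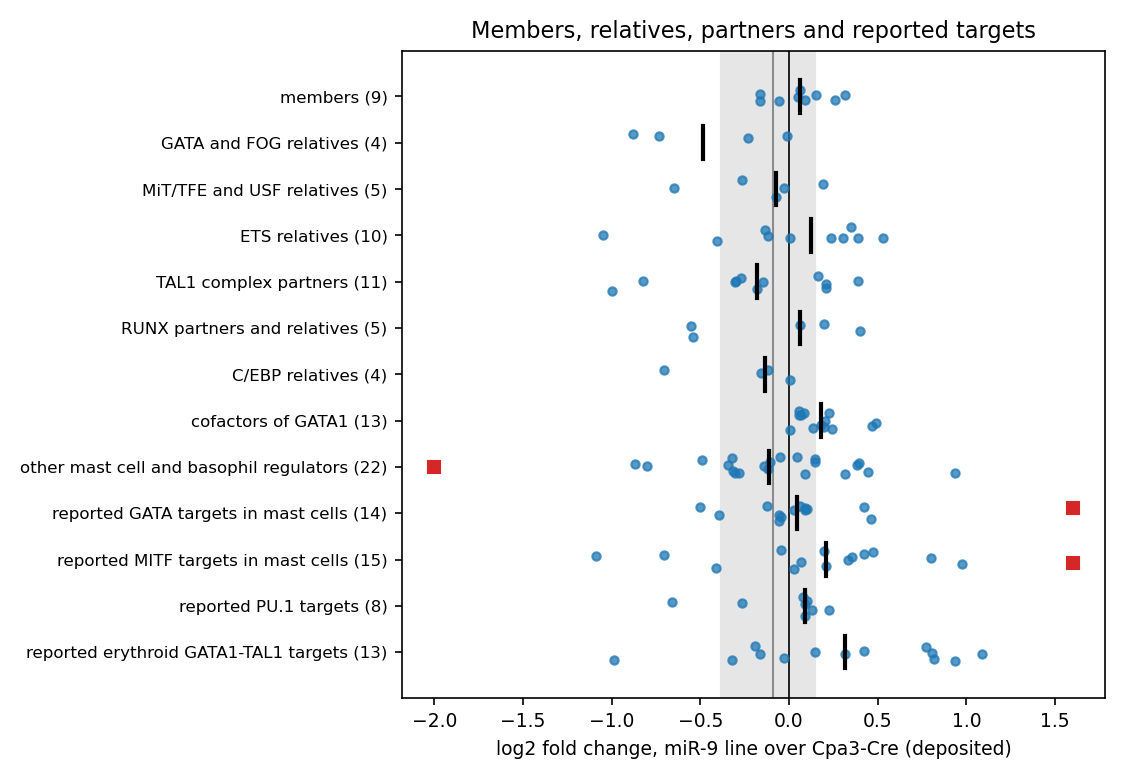
Deposited log2 fold changes of the members and of lists of relatives, partners, cofactors and reported targets, with 1 point per gene that has a p-value and the number of such genes in brackets. Black bars are list medians, the grey band and line are the middle 50 percent and the median of all tested genes, and red squares are the called genes, Gfi1 far to the left and Tpsb2 (at 1.60, in 2 lists).

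Of 22 other regulators of mast cells, basophils and their progenitors with a p-value, 1 was called. Gfi1, a zinc finger repressor that acts in progenitor cells, fell 4.00-fold in the authors' deposited table (Benjamini-Hochberg adjusted p = 1.91e-06). The gene model A430072P03Rik overlaps Gfi1 on the opposite strand and fell 3.22-fold in the authors' deposited table (Benjamini-Hochberg adjusted p = 0.0245), and the libraries were stranded per the labels, but no source used here states the strand setting of the counting. The relative of Gfi1, Gfi1b, which partners GATA1 in red cells and platelets, stood at 0.31 in the authors' deposited table (Benjamini-Hochberg adjusted p = 0.884, chosen after its value was seen). Id1, an inhibitor of the E-proteins that pair with TAL1, stood at -0.80 (p = 0.0504) and Bhlhe40, a basic helix-loop-helix repressor, at -0.34 (p = 0.0668) in the authors' deposited table. The list had a median of -0.11, with 9 positive and 13 negative values. Over all relatives, partners, cofactors and regulators, 74 genes with a p-value, 1 was called (1.35 percent) and the median was -0.00106. Without adjustment, 4 of these 74 had a p under 0.05.

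Genes reported to be controlled by the members in mast cells had 1 call. Of 14 reported GATA targets with a p-value, which include Gata1 and Gata2 themselves, 1 rose, 0 fell and the median was 0.05. Of 15 reported MITF targets 1 rose, 0 fell and the median was 0.21, with 11 positive. The call in both is Tpsb2, a mast cell tryptase gene, which rose 3.03-fold in the authors' deposited table (log2 fold change 1.60, Benjamini-Hochberg adjusted p = 0.0149), while Tpsab1, the tryptase gene beside it, stood at -0.12 (p = 0.807, chosen after its value was seen). The Tpsb2 call was lost under Benjamini-Yekutieli adjustment (adjusted p = 0.158). Tryptase genes resemble each other closely, which leaves these values uncertain if reads were shared. Among the MITF targets, the chymase gene Cma1 (0.97, p = 0.0176) and the granzyme gene Gzmb (0.80, p = 0.0494) also had an unadjusted p under 0.05 in the authors' deposited table. Cpa3, a mast cell carboxypeptidase gene, stood at 0.42 (p = 0.0983) and Il4 at -0.50 (p = 0.0921) in the authors' deposited table.

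The receptor genes that GATA2, MITF and PU.1 keep active did not pass the test. In the authors' deposited table Kit stood at -0.04 (p = 0.910), Fcer1a, the IgE-binding chain, at 0.09 (p = 0.815) and Ms4a2, the beta chain of that receptor, at 0.10 (p = 0.789). Fcer1g, the gamma chain of the IgE receptor, lay farther from 0 in the authors' deposited table, at 0.46 or 1.38-fold higher (p = 0.251, Benjamini-Hochberg adjusted p = 0.846). Reported PU.1 targets gave 8 of 14 genes with a p-value, with a median of 0.09 and 0 called. Among them Ciita, the activator of MHC class II genes, stood at -0.66 (p = 0.0871), the kinase gene Btk at 0.23 (p = 0.299) and Tlr4 at -0.27 (p = 0.390) in the authors' deposited table. Of 11 reported C/EBP targets, 2 had a p-value, Il3ra (-0.35, Benjamini-Hochberg adjusted p = 0.846) and Gata2, and the basophil protease gene Mcpt8 and the neutrophil genes Mpo and Elane were among the 9 without one.

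Genes that GATA1 and TAL1 control in red cell precursors were spread on both sides of 0. Of 13 with a p-value, 8 were positive and 5 negative with a median of 0.31, and 0 were called. The beta globin gene Hbb-bs stood at 1.09 (p = 0.0405, Benjamini-Hochberg adjusted p = 0.587) and Klf1, the erythroid Kruppel-like factor gene, at 0.94 (p = 0.0769) in the authors' deposited table. Slc4a1, the red cell anion exchanger gene, was listed at -0.99 in the authors' deposited table (p = 0.0656). The globin genes are near-identical copies, and their values are uncertain for the same reason.

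Gene models within 50000 bases of the members had no call either. There were 23 beside 8 of the members, and Gata2 and Cebpa had none in that distance. Of the 23, 0 were called and 1 had an unadjusted p under 0.05, where the shares over all genes tested were 0.411 and 7.92 percent. That 1 is Stil, a centriole assembly gene on the same strand as Tal1 and 13230 bases from it. Stil was listed at 1.46 in the authors' deposited table (2.76-fold, p = 0.000304, Benjamini-Hochberg adjusted p = 0.0612), against -0.17 for Tal1. The span of a gene model on the opposite strand overlaps that of Mitf (Gm15531), Runx1 (Gm26626), Lmo2 (4931422A03Rik) and Cebpb (Tmem189). These 4 stood at -0.16, -0.02, 0.03 and 0.17 in the authors' deposited table, and the use of strand in counting is not stated in any source read here.

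Over all lists of relatives, regulators, targets and cell type markers together, members left out, 134 genes had a p-value. Of these, Gfi1 and Tpsb2 were called (2 genes, 1.49 percent, against 0.411 percent of all genes tested). The lists were chosen with earlier results of these data known. The difference between these shares was not tested and cannot be read as enrichment. An unadjusted p under 0.05 was given to 11 of the 134, and to 7.92 percent of all genes tested. The labelled cell type was read through the marker lists. The authors' deposited table gives a p-value for all 12 mast cell markers, 8 with positive and 4 with negative values, and 1 (Tpsb2) was called. All 10 neutrophil markers, Elane included, and 9 of 10 monocyte and macrophage markers, Csf1r included, had no p-value. However, all 8 erythroid, all 8 megakaryocyte and 7 of 9 basophil markers had one. Having a p-value thus did not set mast cell markers apart. A missing p-value is not a level, so how much of these transcripts the cultures held was not tested. In bulk RNA, a change in the number of cells of a type and a change in RNA per cell cannot be told apart.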

How the data were processed

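Bone marrow-cultured mast cells had been kept for 6 to 8 weeks with 50 ng/mL interleukin-3, and strand-marked total RNA was sequenced as paired 50-base reads, at about 70000000 per sample per the labels. STAR, HTSeq, DESeq2, Cuffdiff and DESeq, with GRCm38 and mm10, are named per the submitters' processing notes without roles. The authors deposited a log2 fold change and an unadjusted p-value per gene, per the file headers. The 5 columns of values per library carry names that match no sample's labels and were not used, so depth per sample, standard errors and patterns alike across samples were not analysed; the design's rule for such a table was followed.

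Benjamini-Hochberg adjustment used statsmodels 0.14.6 (Python 3.11.15), with genes called at an adjusted p under 0.05. The design text names a threshold of 0.0001. The 10 members and the 20 lists were chosen with earlier results of these data known; 2 list symbols were matched through RefSeq synonyms and 3 had no row. The text names all members, defining markers, called list genes and up to 3 genes of smallest p per list, unless marked otherwise. Gene models at the miR-9 loci are named as well. Outside that rule are neighbouring or overlapping gene models and the list genes Ms4a2, Fcer1g, Zfpm2, Cebpe and Mpo. Site search and adjustment were tested on simulated data. A gene of the lists is not reported here by name, though its row enters the counts and medians.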

Additional observations from a re-analysis of the deposited data

How the results depend on the processing

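The call was the same for every member with a p-value under Benjamini-Yekutieli adjustment, adjustment over the 15703 rows of protein-coding genes, an unadjusted p under 0.0001 and an adjusted p under 0.10: 0 of 9 members were called under each, where 0.299 percent of all genes passed the unadjusted and 0.968 percent the looser threshold. Centring on the median of all genes (-0.09) turned the sign of Gata2 to 0.034. The median of the list with MITF relatives, Usf1, Usf2 and Mlx turned to 0.017, and that of the megakaryocyte markers to 0.011. Of the list genes around the members 2 were called, and 1 under Benjamini-Yekutieli adjustment. Counting 6-base matches raised the members with a miR-9-3p match from 1 to 3, and searching all annotated 3' UTRs left the number of members with a match of 7 bases at 2 for miR-9-5p and 1 for miR-9-3p. Other fits, filters, pseudocounts and leaving out samples were not run, because they need values per library. No paired analysis was possible because the columns per library could not be tied to the numbered samples. No standard error was at hand, so the smallest change that could have been called in a member is not known.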

Other observations

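Markers of fates next to the mast cell, which the member factors also steer, had no call. Of 7 basophil markers with a p-value 2 were positive, with a median of -0.35 in the authors' deposited table. Itgb7, an integrin chain gene that progenitors use to enter the gut, stood at -0.57 (p = 0.0278, Benjamini-Hochberg adjusted p = 0.520) and Gzmb, the granzyme gene, at 0.80 (p = 0.0494, Benjamini-Hochberg adjusted p = 0.627) in the authors' deposited table, the 2 genes of the basophil list with an unadjusted p under 0.05. Gzmb is also a reported MITF target in mast cells, so neither gene is particular to basophils and neither value can be read as a basophil change. Of 7 progenitor markers with a p-value 1 was positive, with a median of -0.42. Ly6a, which encodes the stem cell antigen Sca-1, stood at -0.88 (p = 0.0371, Benjamini-Hochberg adjusted p = 0.574), Mecom, a stem cell regulator, at -0.87 (p = 0.0756) and Slamf1 at -0.60 (p = 0.258) in the authors' deposited table. The 8 megakaryocyte markers had a median of -0.08, which turned to 0.011 relative to the median of all genes, with Itga2b, the platelet integrin gene, at 0.01 (p = 0.978) in the authors' deposited table. The 8 erythroid markers had a median of 0.20, with 4 positive and 4 negative.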
